A study of Mus musculus with 28 samples.

Results

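Gene expression was compared between 7 arrays of tumour cells from K8CREERT2/PIK3CA-H1047R/RosaYFP mice and 4 arrays of normal luminal cells from K8CREERT2/RosaYFP mice. These were all the arrays of the p53-intact K8-driven tumours and all those of normal luminal cells, 11 of the 28 arrays in the series, and they were described across all genes. CREERT2 is a Cre recombinase that works only after tamoxifen, here driven from the keratin 8 promoter, which is active in the luminal layer of the mammary duct. In the tumour mice Cre turned on both PIK3CA-H1047R, a constantly active form of the enzyme PI3-kinase, and the yellow fluorescent reporter RosaYFP. The control mice carried the same Cre and the same reporter without the oncogene. All mice were female and were given 3 injections of 5 mg tamoxifen from the age of 4 to 5 weeks. Normal cells were sorted as YFP+ luminal cells 8 weeks (2 arrays) or 10 months (2 arrays) after tamoxifen. The tumour label reads only FACS-purified tumour cells, with no statement on YFP, and gives no age of the mice. Time since tamoxifen can therefore not be matched between the groups, and every difference is against the mean of both normal times. Whether arrays of 1 group came from different mice is not stated; p-values then reflect only array-to-array spread, which may be technical.

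The mammary duct has an inner luminal layer, which holds hormone-sensing cells and milk-producing progenitors, and an outer basal layer of contractile myoepithelial cells. Luminal cells are marked by keratins 8 and 18 and basal cells by keratins 5 and 14, the transcription factor Trp63 and smooth muscle genes such as Acta2. PI3-kinase makes the membrane lipid that activates AKT, which promotes growth and keeps FOXO transcription factors out of the nucleus. The study asked, as its title states, how oncogenic PIK3CA reactivates multipotency and makes breast tumours heterogeneous. The comparison below shows how far tumours from luminal-targeted mice depart from the normal cells of that layer, and how much they differ among themselves.

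The upstream sequences of Car12 and Pira1 are shown because, among the 12 largest rises and the 12 largest falls, these genes had the largest moderated t in each direction. Each run is the 250 bases before the gene's start in RefSeq on GRCm38.p6, read 5′ to 3′ on the gene's strand.
Car12 (chr9:66713436-66713685, + strand): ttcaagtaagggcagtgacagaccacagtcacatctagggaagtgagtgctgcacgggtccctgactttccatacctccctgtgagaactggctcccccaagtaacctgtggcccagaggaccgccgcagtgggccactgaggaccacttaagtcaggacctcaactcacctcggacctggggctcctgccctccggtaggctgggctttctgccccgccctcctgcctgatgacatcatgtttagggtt
Pira1 (chr7:3739918-3740167, - strand): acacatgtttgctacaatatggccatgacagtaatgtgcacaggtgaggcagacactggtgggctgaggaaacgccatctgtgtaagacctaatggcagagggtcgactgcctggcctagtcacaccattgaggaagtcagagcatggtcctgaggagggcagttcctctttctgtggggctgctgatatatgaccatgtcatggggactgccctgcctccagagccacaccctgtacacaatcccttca
Capitals would mark an AP-1 motif (TGANTCA), a FOXO motif (GTAAACA) or an E2F motif (TTTNGCGC) on either strand, and there are none in either run. In windows that also hold 50 bases after the start, 7.93% of 27025 mouse promoters hold the AP-1 letters, 3.55% the FOXO letters and 1.38% the E2F letters. Of the 24 genes with the largest rises and falls 19 matched the promoter table, and 0 of these hold any of the motifs, which says only that the letters are not in these windows.

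Of 17097 genes on the array 13663 were tested, and limma called 1448 of them (10.6%) at an adjusted p under 0.05, with 3467 at an unadjusted p under 0.05. In tumours 611 genes were higher (4.47%) and 837 lower (6.13%). These 2 shares are the background for every count of called list genes against luminal cells below. A 2-fold difference was reached by 303 of the higher genes (2.22%) and 219 of the lower ones (1.6%). Of the 303, 15 were dim on all 4 luminal arrays, and of the 219, 5 were dim on all 7 tumour arrays (below the 40th percentile of the array), so those differences are against the dim level of the array. All 1448 genes had the same sign against each normal time, while 304 were called against the 8-week arrays alone (2.22%) and 611 against the 10-month arrays alone (4.47%). Normal luminal cells of the 2 times differed by limma in 2 genes (0.0146%), with 499 at an unadjusted p under 0.05. The total rested on the few normal arrays: it was 457 without 8-week array 1, 831 without 8-week array 2, 523 without 10-month array 1 and 499 without 10-month array 2, against 1207 to 1786 when 1 tumour was left out. When only the 11 arrays were fitted it was 547, and the counts of called genes given below were then 0 for the PI3-kinase, Notch, insulin-like growth factor, cytokine, fibroblast and immune lists, 1 for hormone-sensing and mesenchymal genes and 3 for collagens.

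**Figure D1:**
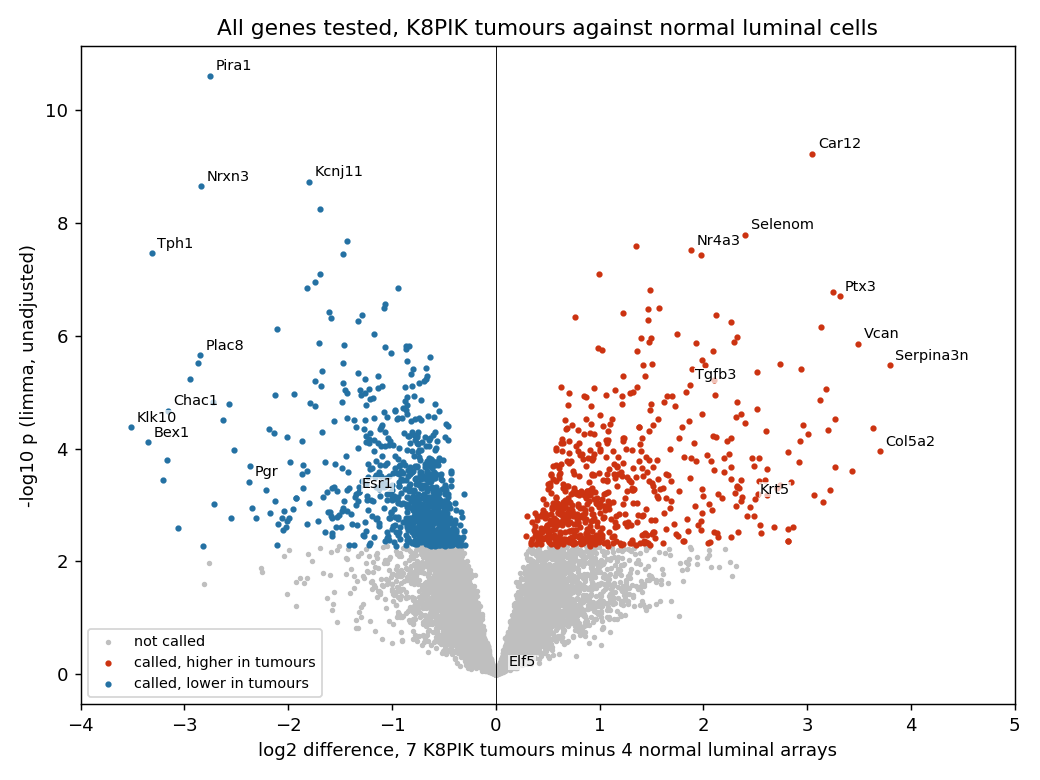
Each point is 1 of the 13663 genes tested, placed by its log2 difference (7 K8PIK tumours minus 4 normal luminal arrays, x axis) and by the -log10 of limma's unadjusted p (y axis). The 611 red genes were called higher and the 837 blue ones lower in tumours, grey genes were not called, and Car12 and Pira1 stand highest on either side.

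Tumours were less alike than the normal cells. Across genes they correlated with each other at 0.880 to 0.973, against 0.979 to 0.993 among the luminal arrays and 0.871 to 0.970 between the groups. The median SD of a gene was 0.301 in tumours, against 0.136 and 0.0976 in luminal cells at 8 weeks and 10 months, and 803 genes had a tumour SD above 1. The tumour SD is over 7 arrays and each luminal SD over 2, which lowers the median of the luminal SDs, so their sizes are not directly comparable. Of the 303 rises, tumour 5 lay above all luminal arrays in 231 and tumour 2 in 300, with the others between 266 and 297. Tumour 4 and tumour 5 were the nearest to normal cells, with median values of 0.94 and 0.99 over the 303 rises, while tumour 3 had 2.10.

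Tumour 3 and tumour 2 stood apart in their markers, which bears on the results that follow. Tumour 3 had Epcam at 8.08 against 10.52 to 11.31 in the other tumours, and its Krt8, Krt18 and Elf5 were the lowest too. Over the 12 fibroblast genes on the array, the mean level was 8.26 in tumour 2 and 7.69 in tumour 3, 6.28 to 6.60 in tumours 1, 6 and 7, and 5.52 and 4.91 in tumours 4 and 5, against 4.90 to 5.67 in luminal cells. Of the 11 fibroblast genes tested 4 were higher (Col1a1, Col3a1, Fbln1 and Pdgfrl) and 0 lower, and for 7 the unadjusted p was under 0.05. The count of called fibroblast genes was 0 without 8-week array 1 or either 10-month array, 2 without tumours 1, 2 or 3, and 6 without tumour 5. Pdgfra, a receptor that defines fibroblasts, was at 3.23 to 4.56 in tumours and 3.09 to 3.25 in luminal cells, near the dim level of 3.89 to 3.99, and Dcn was at -0.02 (adjusted p = 0.989). The immune list had a mean level of 4.60 to 6.32 in tumours, highest in tumour 2, and 4.46 to 5.10 in luminal cells. Of its 21 genes tested 1 was called higher, the complement gene C1qb (1.73 ± 0.52), against 4.47% of all genes. For 8 the unadjusted p was under 0.05. The immune count was 7 without tumour 5, 4 without 8-week array 2, 3 without tumour 6, 2 without tumours 3 or 7, and 0 without any other single array. Ptprc, which marks all leukocytes, was at 2.68 to 4.70 in tumours and 2.70 to 3.38 in luminal cells. The part of these cells in the results was not tested. In bulk samples, fewer cells of a type and less RNA per cell cannot be told apart.

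With the means of the immune and fibroblast lists as covariates, 471 genes were called, 378 of them among the 1448 and in the same direction. That fit kept 112 of the 303 rises and 97 of the 219 falls. Genes of these lists, such as Col1a1, Col3a1 and C1qb, are part of their own covariate, so a lost call there is partly built in. Of the 119 called genes named by rule, 54 were called in that fit, 65 kept their call whichever of the 11 arrays was left out, and 48 met both conditions.

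The largest rises are described first for 4 of the 12 genes named by rule. For rises and falls alike the rule took only called genes whose arrays did not overlap. Lack of overlap in these genes was therefore set by the choice. Serpina3n, an inhibitor of secreted serine proteases, had tumour levels of lowest 5.75, median 8.28 and highest 9.30 and luminal levels of 3.90 and 4.39 at 8 weeks and 3.97 and 4.10 at 10 months. All 7 tumours lay above all 4 luminal arrays, and the mean difference was 13.9-fold (3.80 ± 0.60, adjusted p = 0.000694). Car12, a membrane carbonic anhydrase that handles acid and carbon dioxide, had tumour levels of lowest 7.60, median 8.60 and highest 9.23 and luminal levels of 4.95 and 5.43 at 8 weeks and 5.75 and 5.49 at 10 months. Its groups stood wide apart and every tumour was high, for an 8.28-fold difference (3.05 ± 0.28, adjusted p = 4.08e-06). Ptx3, a soluble pattern-recognition protein, was at lowest 5.92, median 8.29 and highest 8.80 in tumours and 4.71 and 4.17 at 8 weeks and 5.18 and 4.65 at 10 months in luminal cells. Here 1 tumour, number 1, was low at 5.92 while the rest lay between 7.97 and 8.80, and the difference was 3.31 ± 0.43, adjusted p = 0.000136. Sema5a, an axon guidance protein, was at lowest 6.43, median 7.56 and highest 9.12 in tumours and 4.01 and 5.29 at 8 weeks and 4.44 and 4.15 at 10 months in luminal cells. The groups did not overlap and differed by 3.25 ± 0.42, adjusted p = 0.00012.

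Other members of this group of 12 rises were Vcan, a large matrix proteoglycan (3.49 ± 0.52, adjusted p = 0.000419), the monooxygenase gene Moxd1 (3.27 ± 0.61), Pla2g7, which degrades platelet-activating factor (3.26 ± 0.73), and Mgp, an inhibitor of calcification (3.20 ± 0.62). The adenylate kinase gene Ak1 (3.13 ± 0.44), the secreted peptide precursor Ecrg4 (3.01 ± 0.59), Matn2, a filament-forming matrix protein (2.96 ± 0.56), and the Wnt-binding protein gene Sfrp2 (2.94 ± 0.47) completed it. Among these 12, the calls of Moxd1 and Pla2g7 were lost with the marker covariates (adjusted p = 0.0626 and 0.170) at differences of 2.05 and 1.77. Matn2 was dim on all 4 luminal arrays. The selenoprotein gene Selenom (2.40 ± 0.27, adjusted p = 3.68e-05), the RNA-binding protein gene Grsf1 (1.35 ± 0.15), the orphan nuclear receptor gene Nr4a3 (1.88 ± 0.22) and the lysosomal protease gene Ctsc (1.97 ± 0.23) had, with Car12, the largest moderated t of all rises.

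Among the 12 largest falls, Tph1, the enzyme that starts serotonin synthesis, was at lowest 4.11, median 4.31 and highest 6.70 in tumours and 8.42 and 7.40 at 8 weeks and 8.61 and 7.81 at 10 months in luminal cells. As the rule required, no tumour reached the luminal range, although tumour 4 at 6.70 came near it. The gene was 9.96-fold lower (-3.32 ± 0.39, adjusted p = 4.22e-05). Plac8, a small cysteine-rich protein gene, was at lowest 4.28, median 5.25 and highest 7.25 in tumours and 8.66 and 8.23 at 8 weeks and 8.53 and 8.64 at 10 months in luminal cells, and Gpx3, a secreted glutathione peroxidase, at lowest 7.02, median 9.09 and highest 10.00 in tumours and 11.83 and 11.66 at 8 weeks and 11.49 and 11.38 at 10 months in luminal cells. Both had luminal arrays close together and tumours spread over nearly 3 log2 units below them, with differences of -2.85 ± 0.44 and -2.73 ± 0.48. Chac1, which degrades glutathione, was at lowest 5.10, median 5.82 and highest 7.98 in tumours and 9.25 and 8.65 at 8 weeks and 9.72 and 9.74 at 10 months in luminal cells, without overlap (-3.16 ± 0.57, adjusted p = 0.00201). Pira1, an immunoglobulin-like receptor, was at lowest 2.63, median 2.70 and highest 3.26 in tumours and 5.35 and 6.58 at 8 weeks and 5.05 and 5.41 at 10 months in luminal cells (-2.75 ± 0.21, adjusted p = 3.41e-07). All 7 tumours were at the dim level there, as they were for Nrxn3, a synaptic adhesion protein (-2.84 ± 0.28), so neither difference has a measured lower end.

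The rest of the 12 falls were Bex1 (-3.35 ± 0.68, adjusted p = 0.00424), the aspartic protease gene Ctse (-3.21 ± 0.75), the angiotensin receptor gene Agtr1a (-3.17 ± 0.69), the synaptic vesicle genes Syt7 (-2.95 ± 0.49) and Syn2 (-2.87 ± 0.45), and Slc35f3 (-2.63 ± 0.49). With the marker covariates the calls of Bex1, Ctse and Agtr1a were lost (adjusted p = 0.0803, 0.0952 and 0.132) at differences of -2.61, -2.74 and -2.10, and Ctse was also lost without 8-week array 2 or 10-month array 2. Kcnj11, a potassium channel subunit (-1.80 ± 0.18, adjusted p = 7.61e-06), the folate receptor gene Folr2 (-1.70 ± 0.18) and the BMP receptor gene Bmpr1b (-1.43 ± 0.16) joined Pira1 and Nrxn3 among the falls with the largest moderated t, and Bmpr1b was dim on all 7 tumours. Kcnj11 was at 5.72 to 6.31 in tumours against 7.45 to 8.37 in luminal cells. Pira1, Serpina3n, Cstdc2, Sprr2f, Ifit3, Hspa1b and H2-D1 belong to families of near-identical genes, so their probe sets may read more than 1 member.

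**Figure D2:**
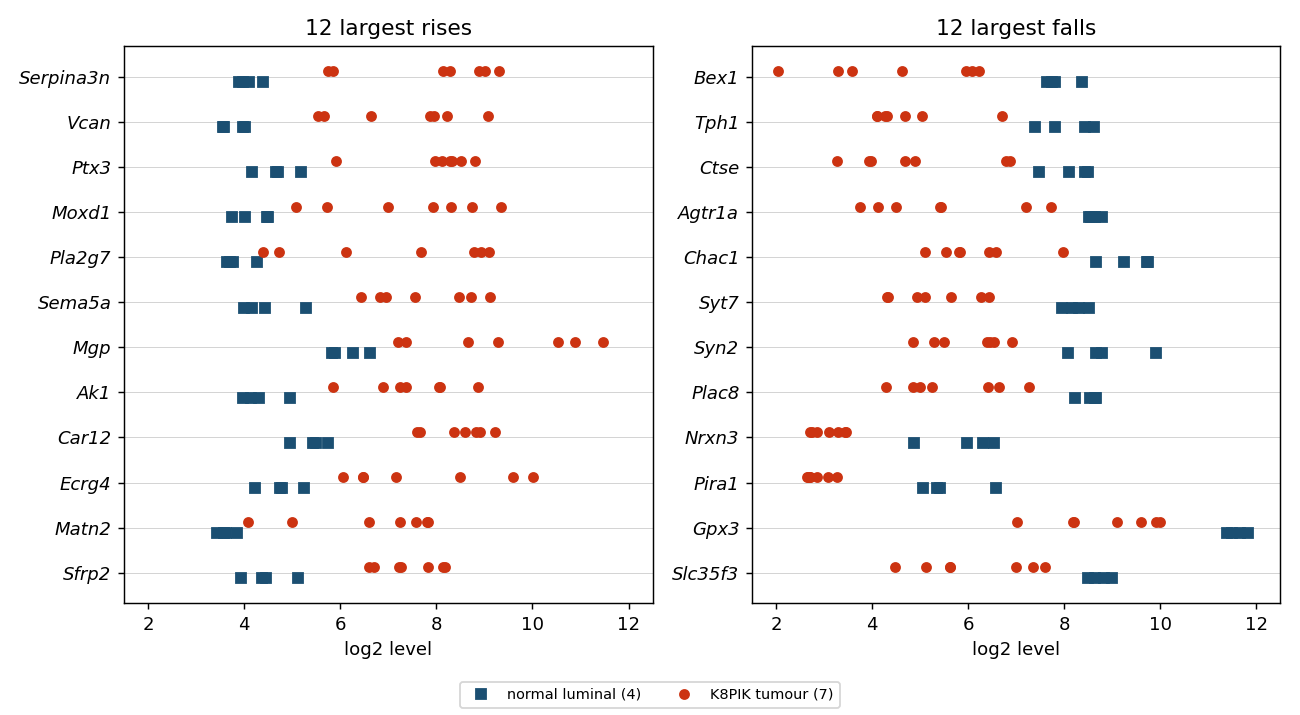
Log2 level (x axis) of the 12 largest rises (left) and 12 largest falls (right) among called genes whose arrays did not overlap, with a red circle for each of the 7 K8PIK tumours and a blue square for each of the 4 normal luminal arrays. Tumours are spread over several log2 units for Serpina3n or Bex1, and lie close together for Nrxn3 and Pira1.

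Basal identity genes were higher in 7 of 16 cases and lower in 0. Krt5 had tumour levels of lowest 6.86, median 10.72 and highest 11.94 and luminal levels of 7.45 and 8.09 at 8 weeks and 6.90 and 7.37 at 10 months. Tumours 1, 2, 6 and 7 were at 10.72 to 11.94, tumours 4 and 5 at 8.72 and 9.14, and tumour 3, at 6.86, just below all luminal arrays, for a mean difference of 2.49 ± 0.63, adjusted p = 0.0164. Trp63, which directs the basal programme, was at lowest 5.54, median 7.64 and highest 9.15 in tumours and 5.61 and 5.12 at 8 weeks and 4.87 and 4.92 at 10 months in luminal cells. The highest tumours were 1 and 6 at 9.12 and 9.15, tumour 5 lay inside the luminal range, and the difference was 2.27 ± 0.53, adjusted p = 0.0103. Krt14 was at lowest 7.99, median 9.58 and highest 11.46 in tumours and 8.39 and 8.46 at 8 weeks and 7.20 and 7.60 at 10 months in luminal cells, with tumours 4 and 5 below the 8-week arrays (1.64 ± 0.48, adjusted p = 0.0327). The list had a median difference of 0.87 against -0.000927 over all genes tested. The others called were the HLH factor Id4 (1.30 ± 0.37), Bnc1 (1.03 ± 0.26), the Notch ligand Jag1 (0.92 ± 0.24) and the cadherin Cdh3 (0.90 ± 0.29). In 2 of the 16 all tumours lay above all luminal arrays, as in 2.8% of all genes on the higher side.

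The basal calls depended on the normal arrays. Without 8-week array 1, 10-month array 1 or 10-month array 2 the basal count was 1, and without 8-week array 2 it was 3, while without tumour 6 it was 4. Krt5 was not called without 8-week array 1 or either 10-month array, and Krt14 without any of the 4 normal arrays or without tumours 2 or 6. Trp63 kept its call whichever array was left out, but when only the 11 arrays were fitted 0 of the 16 were called, with Trp63 at adjusted p = 0.0895. With the marker covariates 0 of the 16 were called, while the differences stayed at 1.90 ± 0.59 for Trp63 (adjusted p = 0.0856) and 2.39 ± 0.80 for Krt5 (adjusted p = 0.108). Tumours 4 and 5 were low both in Krt5 and in the fibroblast list (5.52 and 4.91), tumour 2 was high in both (8.26 for the list), and tumour 3 was lowest in Krt5 with a fibroblast level of 7.69. The part of fibroblasts in the basal genes was not tested.

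Contractile genes, which let myoepithelial cells squeeze milk from the gland, were higher in 5 of 11 cases and lower in 0. Acta2, smooth muscle actin, was at lowest 7.43, median 9.71 and highest 11.17 in tumours and 6.94 and 8.76 at 8 weeks and 7.11 and 7.46 at 10 months in luminal cells. Tumours 1, 3 and 6 were above 10.5, and tumours 4 and 5 were below 8-week array 2 (2.09 ± 0.55, adjusted p = 0.0209). The median difference of the list was 1.45, and the 5 called were Acta2, the myosin light chain gene Myl9 (2.53 ± 0.60), its kinase Mylk (2.30 ± 0.57), the tropomyosin gene Tpm2 (1.93 ± 0.42) and Actg2 (1.33 ± 0.32). The mean level of the list was 7.65 and 7.81 in tumours 1 and 6, 5.66 to 6.84 in the others and 5.20 to 6.00 in luminal cells. The count was 1 without 8-week array 1 or 10-month array 1, 3 without 10-month array 2, and 0 when only the 11 arrays were fitted. With the marker covariates it was 0 as well, with differences of 2.14 for Mylk (adjusted p = 0.112), 1.79 for Myl9 (adjusted p = 0.147) and 1.20 for Acta2 (adjusted p = 0.291). Acta2 is also expressed by fibroblasts and pericytes, and the part of these cells in the contractile genes was not tested. The 5 pericyte genes tested had a mean level of 5.28 to 7.54 in tumours and 5.46 to 6.12 in luminal cells, with 0 called by limma and 3 at an unadjusted p under 0.05, and 4 were called without tumour 5 and 2 without tumour 4.

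Against 4 arrays of normal basal cells of K5CREERT2/RosaYFP mice, taken at the same 2 times, Trp63 (-1.97 ± 0.53, adjusted p = 0.00544), Acta2 (-1.80 ± 0.55, adjusted p = 0.0131) and Krt14 (-2.22 ± 0.48, adjusted p = 0.000989) were lower in tumours. Krt5 missed the threshold there (-1.53 ± 0.63, adjusted p = 0.0587). In that comparison 41.4% of all genes were called. The hemidesmosome and basement membrane fix epithelium to the matrix below it. Of 10 of their genes 2 were higher in tumours than in luminal cells, against 4.47% of all genes, and 0 lower. These were the anchoring fibril collagen Col7a1 at lowest 5.62, median 7.50 and highest 8.51 in tumours and 4.88 and 5.26 at 8 weeks and 5.23 and 5.31 at 10 months in luminal cells (2.09 ± 0.41, adjusted p = 0.00374), and Col4a5 (1.49 ± 0.27). Both had every tumour above every luminal array. The count was 4 without tumour 4 or tumour 5, and 1 with the marker covariates or when only the 11 arrays were fitted.

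**Figure D3:**
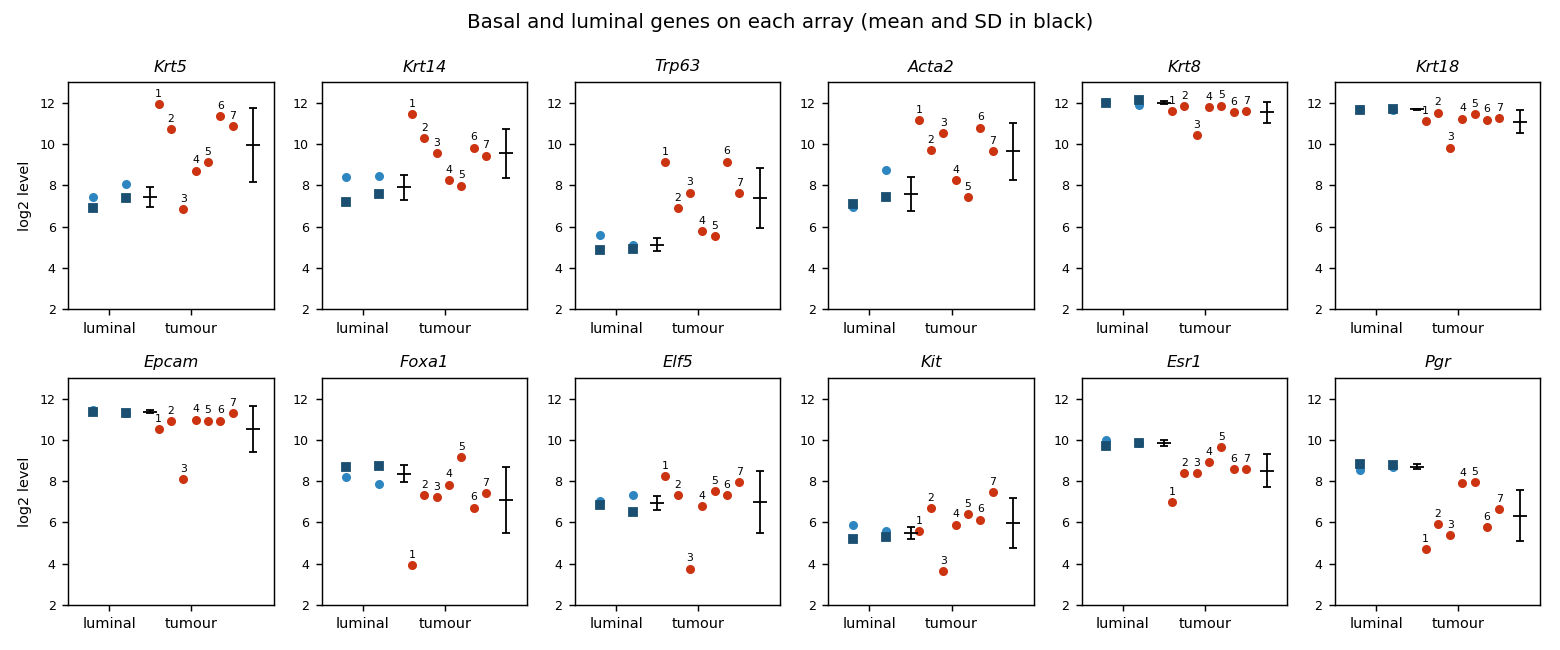
Log2 levels (y axis) of 12 basal and luminal genes on each array, with normal luminal arrays in blue (circles 8 weeks, squares 10 months), K8PIK tumours in red with their numbers, and the mean and SD of each group in black. Krt5, Krt14, Trp63 and Acta2 range from the luminal level to several log2 units above it, and tumour 3 alone is low in Epcam, Elf5 and Kit.

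Keratins 8 and 18, the luminal keratins, did not pass the test. Krt8 was at lowest 10.46, median 11.62 and highest 11.87 in tumours and 12.04 and 11.90 at 8 weeks and 12.02 and 12.12 at 10 months in luminal cells, and Krt18 at lowest 9.83, median 11.24 and highest 11.53 in tumours and 11.71 and 11.68 at 8 weeks and 11.67 and 11.70 at 10 months in luminal cells. For both, every tumour lay below every luminal array, but neither difference was called (-0.48 ± 0.19, adjusted p = 0.11, and -0.60 ± 0.24, adjusted p = 0.114). Tumour 3 was the low array for both: without it the differences were -0.30 ± 0.10 (adjusted p = 0.0663) and -0.39 ± 0.15 (adjusted p = 0.107). Epcam, an adhesion molecule of epithelial cells, was at -0.84 ± 0.39, adjusted p = 0.179, and was called without tumour 3 (-0.44 ± 0.14, adjusted p = 0.0454). Of 15 luminal identity genes 1 was lower, against 6.13% of all genes, and 0 higher, with a median difference of -0.80. For 9 of the 15 limma's unadjusted p was under 0.05. In 7 of the 15 all tumours lay below all luminal arrays, against 4.1% of all genes. The count of lower genes was 3 without tumour 3 or tumour 5.

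Spdef, an ETS factor of secretory epithelium, was the luminal identity gene called. Its tumour levels were lowest 5.12, median 5.76 and highest 6.76 and its luminal levels 7.40 and 8.09 at 8 weeks and 6.85 and 6.80 at 10 months. Tumours lay below all luminal arrays, for a difference of -1.47 ± 0.24, adjusted p = 0.00111. Foxa1, the factor that opens chromatin for the oestrogen receptor, was at lowest 3.94, median 7.32 and highest 9.17 in tumours and 8.19 and 7.85 at 8 weeks and 8.67 and 8.74 at 10 months in luminal cells. It ranged from 3.94 in tumour 1, near the dim level, to 9.17 in tumour 5, above the luminal range, and was not called (-1.27 ± 0.63, adjusted p = 0.209). Gata3, another luminal factor, was at 0.18 ± 0.24, adjusted p = 0.691, and Prom1, a membrane protein of hormone-sensing cells, at -1.81 ± 0.61, adjusted p = 0.0616.

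Hormone-sensing genes were lower in 4 of 11 cases. Pgr, the progesterone receptor, was at lowest 4.71, median 5.92 and highest 7.95 in tumours and 8.53 and 8.68 at 8 weeks and 8.83 and 8.77 at 10 months in luminal cells. Tumours 4 and 5 were at 7.91 and 7.95 and the rest at 6.65 or below, all under the luminal range (-2.38 ± 0.56, adjusted p = 0.0108). Esr1, the oestrogen receptor, was at lowest 6.98, median 8.57 and highest 9.64 in tumours and 10.01 and 9.85 at 8 weeks and 9.71 and 9.84 at 10 months in luminal cells. Tumour 1 was lowest and tumour 5 was within 0.1 of the lowest luminal array (-1.35 ± 0.33, adjusted p = 0.0144). Of the 11, 0 were higher, with a median difference of -1.27. Wnt4, which hormone-sensing cells secrete in response to progesterone, was at -1.62 ± 0.40 (its call was lost whichever luminal array was left out), and Greb1, an oestrogen-induced gene, at -1.07 ± 0.26. Greb1 was lower against the 8-week arrays (-2.01) and level with the 10-month arrays (-0.13, adjusted p = 0.872). The count was 0 without 10-month array 1, 1 without 8-week array 1 and 2 without 10-month array 2, and with the marker covariates it was 1.

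Elf5, the factor of alveolar progenitors, was at lowest 3.76, median 7.34 and highest 8.26 in tumours and 7.02 and 7.33 at 8 weeks and 6.85 and 6.50 at 10 months in luminal cells, with only tumour 3 below 6.7 (0.07 ± 0.55, adjusted p = 0.958). Kit, a receptor of luminal progenitors, was at 0.48 ± 0.45, adjusted p = 0.556. Of 12 progenitor genes 2 were lower, Stat5a, which carries the prolactin signal (-1.30 ± 0.23, adjusted p = 0.00139), and Rspo1, a Wnt agonist (-0.97 ± 0.18), and 0 higher, against 6.13% lower among all genes. Rspo1 was dim on 6 of the 7 tumours and on 1 luminal array, so its difference is against the dim level. Of 15 milk protein and fat globule genes 1 was lower, against 6.13% of all genes. It was the lipid droplet gene Cidea (-1.26 ± 0.35, adjusted p = 0.0275), whose call was lost whichever luminal array was left out. The milk count was 3 without tumour 1, 2 without tumour 2, and 3 with the marker covariates. The casein gene Csn2 had one of the largest SDs over tumours, at lowest 2.88, median 6.52 and highest 10.46 against 10.11 and 9.51 at 8 weeks and 9.08 and 8.55 at 10 months in luminal cells (-2.81 ± 1.16, adjusted p = 0.132), and it was called lower with the marker covariates (-4.70 ± 1.25, adjusted p = 0.0441). The milk list mean was 9.67 in tumour 1 and 5.84 in tumour 3, against 8.36 to 8.78 in luminal cells. Other genes with the largest SD were Apoc1, an apolipoprotein (4.67 to 11.20 in tumours, 8.06 to 8.81 in luminal cells), the secreted mucosal proteins Dmbt1 (4.81 to 10.35, 6.32 to 8.14) and Fcgbp (5.15 to 11.93, 10.44 to 11.24), the sodium pump regulator Fxyd2 (4.40 to 10.81, 9.97 to 10.84), and Cstdc2 (4.62 to 10.72, 4.57 to 4.61). Of these 6 only Cstdc2 was called (2.81 ± 0.88, adjusted p = 0.0452), and its call was lost without tumours 4, 5, 6 or 7 or any luminal array.

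Each tumour was placed between the normal layers as a description, without a test. The axis used 1062 genes that were higher and 1634 that were lower in basal than in luminal cells at 10 months, scaled to 0 at the luminal and 1 at the basal 10-month mean. On the genes high in basal cells tumour 5 was at 0.0983, tumours 4 and 7 at 0.249 and 0.266, and tumours 1, 2, 3 and 6 at 0.390 to 0.443. On the genes high in luminal cells tumour 5 was at 0.0640, tumours 4 and 7 at 0.191 and 0.180, tumours 1, 2 and 6 at 0.264 to 0.288, and tumour 3 at 0.405. Luminal arrays at 8 weeks, which did not choose the genes, were at 0.0552 and 0.0727 and at -0.0275 and 0.00814, and basal arrays at 8 weeks at 0.727 and 0.795 and at 0.813 and 0.592. All 7 tumours thus lay beyond the luminal arrays and short of the basal ones on both axes. The 3 tumours with the lowest positions included the 2 with the lowest fibroblast level, and the part of fibroblasts in the position was not tested.

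**Figure D4:**
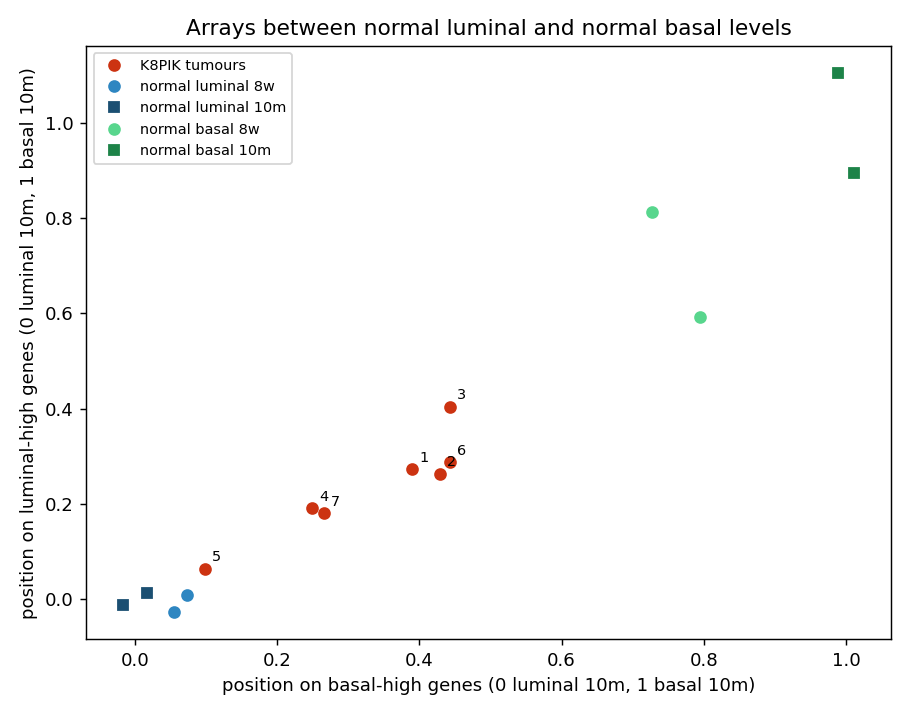
Position of each array on genes high in normal basal cells (x axis) and on genes high in normal luminal cells (y axis), as a fraction of the way from the luminal mean (0) to the basal mean (1) at 10 months. The 7 numbered K8PIK tumours run from 0.0983 to 0.443 on the x axis, between the normal luminal (blue) and normal basal (green) arrays.

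Of 15 collagen genes 9 were higher and 0 lower, with a median difference of 1.68. It was 1.77 for the fibroblast list, which shares genes with the collagens, among them Col1a1 and Col3a1. Col5a2, a chain of collagen V, was at lowest 4.53, median 7.88 and highest 10.35 in tumours and 3.94 and 4.78 at 8 weeks and 3.88 and 3.86 at 10 months in luminal cells, with tumour 5 inside the luminal range (3.70 ± 0.78, adjusted p = 0.00527). Col4a2, a chain of basement membrane collagen IV, was at lowest 7.31, median 9.23 and highest 9.57 in tumours and 5.99 and 6.80 at 8 weeks and 5.99 and 5.30 at 10 months in luminal cells, with all tumours above all luminal arrays (2.74 ± 0.43, adjusted p = 0.000694). Col3a1, a fibrillar collagen of connective tissue, was at lowest 6.09, median 9.93 and highest 11.47 in tumours and 5.84 and 8.50 at 8 weeks and 5.27 and 5.20 at 10 months in luminal cells. There 8-week array 2, at 8.50, lay above tumours 4 and 5 (3.15 ± 0.81, adjusted p = 0.0172). The mean of the 16 collagens on the array was 9.11 and 9.12 in tumours 3 and 2, 6.63 to 7.81 in tumours 1, 4, 6 and 7, 5.70 in tumour 5 and 5.70 to 6.49 in luminal cells. Without tumours 2 and 3, the arrays with the highest fibroblast level, 5 collagens were called, with Col4a2 at 2.43 ± 0.43 (adjusted p = 0.00224), Col5a2 at 2.73 ± 0.59 (adjusted p = 0.00755) and Col3a1 at 2.37 ± 0.74 (adjusted p = 0.0517). With the covariates 2 were called, but Col1a1 and Col3a1 are part of the fibroblast covariate, so the loss of their calls is partly built in. Without single luminal arrays the count was 2, 6, 4 and 3 (8-week arrays 1 and 2, 10-month arrays 1 and 2).

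Of 16 mesenchymal transition genes 6 were higher and 0 lower, with a median difference of 1.45. Fn1, fibronectin, was at lowest 5.48, median 7.55 and highest 11.31 in tumours and 4.45 and 5.53 at 8 weeks and 3.88 and 3.89 at 10 months in luminal cells, Vim, the mesenchymal filament protein vimentin, at lowest 7.41, median 9.16 and highest 11.61 in tumours and 6.46 and 7.84 at 8 weeks and 6.97 and 7.12 at 10 months in luminal cells. Tumours 2 and 3 led both, and the differences were 3.43 ± 0.77 and 2.32 ± 0.56. Sparc, a collagen-binding protein (2.30 ± 0.34, adjusted p = 0.000419), Mmp2, a gelatinase (3.63 ± 0.70, adjusted p = 0.00307), Prrx1 (2.71 ± 0.66) and Snai1 (1.69 ± 0.40), both transcription factors of mesenchymal cells, were the others. Without tumours 2 and 3 the count was 7, and with the marker covariates it was 1. It was 2, 3 and 4 without 8-week array 1, 10-month array 1 and 10-month array 2. Of 20 matrix proteases and inhibitors 4 were higher and 0 lower. The protease inhibitor Timp3 was at lowest 8.66, median 9.79 and highest 10.49 in tumours and 7.99 and 7.63 at 8 weeks and 7.39 and 7.30 at 10 months in luminal cells, without overlap (2.27 ± 0.32, adjusted p = 0.000239), and was called with the covariates too. Mmp2, Adam12 (2.56 ± 0.76) and Adamts1 (0.99 ± 0.31) were the other 3. The list count was 2 without tumour 2, tumour 6 or any luminal array.

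TGF-beta and activin genes were higher in 6 of 19 cases and lower in 0. Tgfb3, a ligand, was at lowest 8.60, median 8.96 and highest 9.69 in tumours and 7.69 and 7.40 at 8 weeks and 7.12 and 6.80 at 10 months in luminal cells (1.87 ± 0.31, adjusted p = 0.00116), with every tumour more than 0.9 above every luminal array. The activin subunit Inhba was at lowest 6.74, median 8.37 and highest 11.12 in tumours and 6.28 and 6.26 at 8 weeks and 6.39 and 6.55 at 10 months in luminal cells. The groups did not overlap and tumour 3 was highest at 11.12, with a difference of 2.31 ± 0.60, adjusted p = 0.0189. The call was lost whichever luminal array was left out. The follistatin-related genes Fstl1 (3.22 ± 0.78) and Fstl3 (1.13 ± 0.24), the TGF-beta-induced matrix gene Tgfbi (2.86 ± 0.83) and the list member Id2 (1.07 ± 0.25) were higher too. With the marker covariates 2 of the 19 were higher and 1 lower, and Tgfb3 was at 2.00 (adjusted p = 0.00927). The list count was 2 without 8-week array 1 or 10-month array 2 and 4 without either remaining normal array.

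Insulin-like growth factor genes, which act upstream of PI3-kinase, had 4 of 9 tested members higher and 0 lower. Igf1 was at lowest 5.52, median 6.44 and highest 7.97 in tumours and 4.68 and 4.83 at 8 weeks and 4.57 and 4.29 at 10 months in luminal cells, with no overlap (2.08 ± 0.45, adjusted p = 0.00678). The 3 binding proteins that hold the growth factors outside the cell and were called higher are Igfbp3 (3.07 ± 0.77), Igfbp2 (2.55 ± 0.73) and Igfbp4 (2.14 ± 0.65). Fibroblasts also make these proteins, and the part of fibroblasts in these rises was not tested. With the marker covariates the count was 0. Igf1 was then at 1.41 (adjusted p = 0.124), Igfbp3 at 1.98 (0.231), Igfbp2 at 1.67 (0.325) and Igfbp4 at 0.42 (0.709). The count was 1 without 8-week array 1 or either 10-month array, and 2 without 8-week array 2, tumour 2 or tumour 6.

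Pik3ca, read by a probe set of the mouse gene, was at lowest 7.26, median 7.46 and highest 7.86 in tumours and 7.95 and 7.69 at 8 weeks and 7.63 and 7.55 at 10 months in luminal cells, with overlapping values (-0.20 ± 0.11, adjusted p = 0.289). Whether the probe set also reads the mutant transgene is not given in the sources used here, so it does not check the genotype. Of 21 pathway genes 2 were higher, against 4.47% of all genes, and 0 lower, with a median difference of 0.04. The 2 were the regulatory subunit gene Pik3r2 (0.64 ± 0.20, adjusted p = 0.0483) and Phlpp1, a phosphatase that switches AKT off (0.60 ± 0.16, adjusted p = 0.022). The count was 0 whichever luminal array was left out and 1 without tumours 1, 5, 6 or 7, and it was 4 without tumour 3. Of 18 FOXO-induced genes, which active AKT would silence, 2 were higher, against 4.47% of all genes, and 0 lower, and the list median was -0.02. These were Cited2, a transcriptional cofactor, at lowest 10.17, median 10.42 and highest 10.69 in tumours and 9.91 and 9.60 at 8 weeks and 9.91 and 9.65 at 10 months in luminal cells (0.67 ± 0.13, adjusted p = 0.00252), and the stress sensor Sesn3 (0.86 ± 0.23). Sesn3 lost its call without 8-week array 1 or 10-month array 2.

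The ERK list had 2 of 13 genes higher and 1 lower, against 4.47% and 6.13% of all genes. Etv5, an ETS factor that ERK induces, was at lowest 5.37, median 6.22 and highest 6.43 in tumours and 5.08 and 4.81 at 8 weeks and 4.46 and 4.08 at 10 months in luminal cells, without overlap (1.40 ± 0.20, adjusted p = 0.000383). Dusp6, a phosphatase that acts back on ERK, was at lowest 7.83, median 8.12 and highest 8.96 in tumours and 7.02 and 7.02 at 8 weeks and 7.47 and 7.40 at 10 months in luminal cells (1.08 ± 0.21, adjusted p = 0.00337). Both kept their call whichever array was left out, and with the covariates. Fosl1, an AP-1 subunit, was lower (-0.66 ± 0.18), a call lost without 8-week array 1 or either 10-month array. EGF receptor family genes had 3 of 12 lower, against 6.13% of all genes, and 0 higher. The 3 were the ligand Epgn, at lowest 4.53, median 5.99 and highest 7.35 in tumours and 8.44 and 7.46 at 8 weeks and 9.04 and 9.42 at 10 months in luminal cells (-2.52 ± 0.53, adjusted p = 0.00514), the ligand Btc (-1.36 ± 0.26) and the receptor Erbb4 (-0.80 ± 0.24). The mean level of the 13 genes of the list on the array was 6.32 to 6.64 in tumours and 6.85 to 7.05 in luminal cells, with no overlap. The count of lower genes was 2 without tumours 1, 2, 3 or 6, or without any single luminal array.

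Of 16 Notch pathway genes 3 were higher, against 4.47% of all genes, and 0 lower. The 3 were the ligands Jag1 (0.92 ± 0.24, adjusted p = 0.0207) and Dll1 (0.75 ± 0.22) and the target Hey1 (1.28 ± 0.36). Jag1 was at lowest 8.05, median 8.80 and highest 9.26 in tumours and 7.84 and 7.97 at 8 weeks and 7.67 and 7.81 at 10 months in luminal cells, with all tumours higher. Each of the 3 lost its call whichever luminal array was left out. Of 22 Wnt genes 6 were higher and 1 lower. The frizzled receptors Fzd1 (1.48 ± 0.32, adjusted p = 0.00668), Fzd2 (1.47 ± 0.35) and Fzd7 (1.24 ± 0.25), the receptor Lgr4 (1.18 ± 0.32) and the secreted Wnt-binding proteins Sfrp1 and Sfrp2 were higher, and Wnt4 was the lower gene, whose call was lost whichever luminal array was left out. Sfrp2 was at lowest 6.60, median 7.27 and highest 8.17 in tumours and 4.38 and 5.12 at 8 weeks and 4.45 and 3.94 at 10 months in luminal cells, Sfrp1 at lowest 6.05, median 6.56 and highest 8.45 in tumours and 5.04 and 5.11 at 8 weeks and 4.68 and 4.74 at 10 months in luminal cells. All tumours were above all luminal arrays in both (2.94 ± 0.47 and 2.26 ± 0.45). With the covariates 3 of the Wnt genes were higher and 0 lower.

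Insig1, which restrains sterol synthesis, was at lowest 7.85, median 8.60 and highest 9.78 in tumours and 7.03 and 6.11 at 8 weeks and 6.83 and 6.91 at 10 months in luminal cells, without overlap (1.89 ± 0.30, adjusted p = 0.000765). Fatty acid synthase, Fasn, was at lowest 7.90, median 8.08 and highest 8.51 in tumours and 7.47 and 7.54 at 8 weeks and 7.31 and 7.38 at 10 months in luminal cells, with tumour 1 highest (0.69 ± 0.13, adjusted p = 0.0031). Of 17 sterol and fatty acid genes 4 were higher and 0 lower, with Dhcr7 (0.94 ± 0.26) and Acaca (0.51 ± 0.16) as the others. The count was 2 whichever luminal array was left out. Of 14 glycolysis genes 3 were higher and 1 lower, against 4.47% and 6.13% of all genes. Pfkl, liver phosphofructokinase, was at lowest 9.84, median 10.10 and highest 10.66 in tumours and 9.18 and 9.50 at 8 weeks and 9.12 and 9.15 at 10 months in luminal cells, all tumours higher (0.94 ± 0.16, adjusted p = 0.00123). Hexokinase 2, Hk2, was at 1.23 ± 0.24 and Gapdh at 0.30 ± 0.08, while Pfkfb3 was lower (-0.63 ± 0.20, adjusted p = 0.0499) and lost its call without tumours 1, 2, 3, 4, 6 or 7 or any luminal array. The glycolysis count of higher genes was 6 without tumour 5 and 8 without tumour 6, and 2 whichever luminal array was left out. Of 13 hypoxia genes 1 was called, against 4.47% of all genes called higher. It was Car9, a hypoxia-induced relative of Car12 (1.46 ± 0.33, adjusted p = 0.00877). Car9 was at 5.02 to 6.91 in tumours and 5.46 and 4.93 at 8 weeks and 4.04 and 4.14 at 10 months in luminal cells. It was called against the 10-month arrays (2.01, adjusted p = 0.0134) but not against the 8-week ones (0.91, adjusted p = 0.287). The hypoxia list mean was 7.07 to 7.09 in tumours 5, 6 and 7, 7.72 to 8.17 in the others and 7.12 to 7.36 in luminal cells. The hypoxia count was 4 without tumour 6, 3 without tumour 7 and 2 without tumour 5, and 0 with the marker covariates (Car9 at adjusted p = 0.0856) or when only the 11 arrays were fitted (0.0567).

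**Figure D5:**
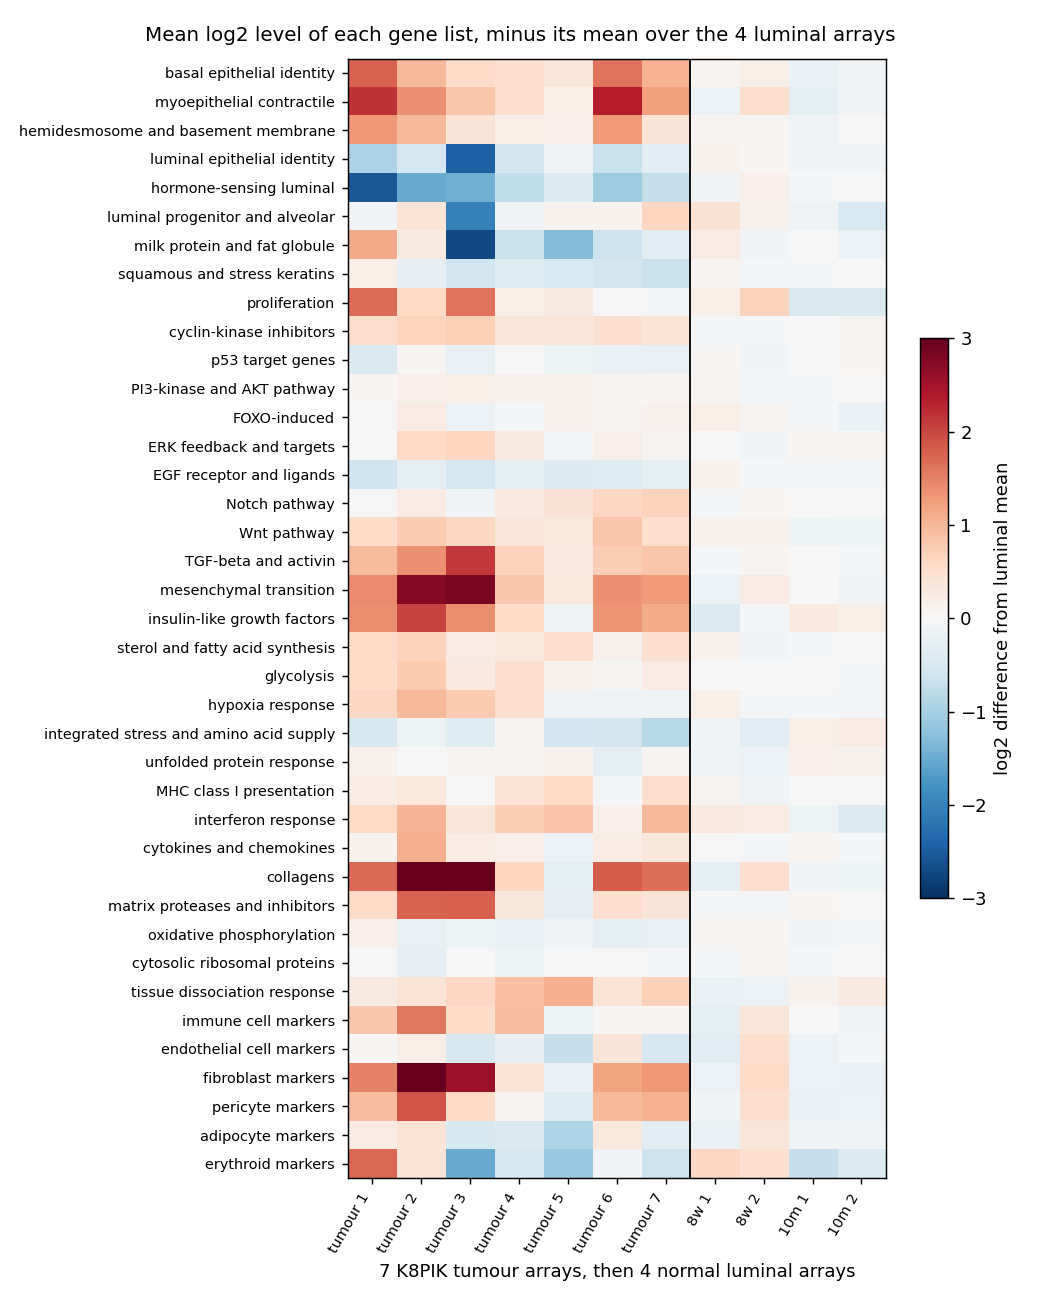
Mean log2 level of each of the 39 gene lists (rows) on each of the 11 arrays (columns), minus the mean of that list over the 4 luminal arrays, with red above and blue below it and the colour scale ending at 3 log2 units. Collagen, mesenchymal and fibroblast lists are strongest in tumours 2 and 3, basal and contractile lists in tumours 1 and 6, and tumour 5 is near the luminal mean in the collagen and fibroblast lists.

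Proliferation genes were not called as higher or lower in any of 23 cases by limma, with 6 at an unadjusted p under 0.05. The mean level of the 24 proliferation genes on the array was 7.30 and 7.24 in tumours 1 and 3 and 5.55 to 6.20 in the others, against 5.17 to 6.30 in luminal cells. Mki67, a marker of cycling cells, was at 5.21 to 8.01 in tumours and 4.00 to 6.64 in luminal cells (1.15 ± 0.51, adjusted p = 0.159). Of 7 cyclin-kinase inhibitors, which stop the cell cycle, 2 were higher and 0 lower. Cdkn2a was at lowest 4.28, median 4.52 and highest 4.81 in tumours and 3.90 and 3.70 at 8 weeks and 4.09 and 3.98 at 10 months in luminal cells, low but without overlap (0.61 ± 0.14, adjusted p = 0.00924), and Cdkn2c at 0.88 ± 0.21. Cdkn2a lost its call without 10-month array 2 (adjusted p = 0.0549), and the count was then 0.

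Genes that p53 induces went both ways, with 2 of 16 higher and 3 lower, against 4.47% and 6.13% of all genes. Phlda3, which keeps AKT from the membrane, was at lowest 5.74, median 6.70 and highest 7.66 in tumours and 4.70 and 5.18 at 8 weeks and 4.81 and 5.05 at 10 months in luminal cells (1.77 ± 0.35, adjusted p = 0.00386), and Bbc3, a pro-death BH3 protein gene, at 0.46 ± 0.12. Trp53inp1, which promotes cell death and autophagy, was lower, at lowest 6.76, median 8.52 and highest 9.21 in tumours and 10.23 and 9.72 at 8 weeks and 10.10 and 10.15 at 10 months in luminal cells (-1.87 ± 0.38, adjusted p = 0.00413). So were Trp53i11 (-1.26 ± 0.24) and Aen, an apoptosis nuclease (-0.65 ± 0.18). The higher count was 1 whichever luminal array was left out. Of 19 genes of the integrated stress response 2 were lower, Chac1 and the pseudokinase Trib3 (-1.86 ± 0.41, adjusted p = 0.00756), and 0 higher. Trib3 lost its call without 8-week array 1.

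Immune-response genes were higher in part. Irf7, the master regulator of interferon genes, was at lowest 6.62, median 7.00 and highest 7.71 in tumours and 5.98 and 5.83 at 8 weeks and 5.71 and 5.73 at 10 months in luminal cells, without overlap (1.31 ± 0.27, adjusted p = 0.00515). Of 17 interferon genes 5 were higher and 0 lower, with Ifit3 (1.49 ± 0.47), Usp18 (1.31 ± 0.41), Oas2 (0.91 ± 0.22) and Mx2 (0.38 ± 0.11). The count was 1 without 8-week array 1 or either 10-month array, 2 without 8-week array 2, tumour 2 or tumour 7, 3 without tumour 1 or tumour 4, and 0 with the marker covariates. It was 3 both with quantile normalization and with arrays centred on the median. Among 27 cytokine genes 3 were higher, the alarmin Il33 at lowest 4.65, median 7.34 and highest 8.45 in tumours and 5.57 and 3.52 at 8 weeks and 3.87 and 4.36 at 10 months in luminal cells (2.74 ± 0.65, adjusted p = 0.0119), the chemokine Cxcl14 (2.42 ± 0.66) and Il17b (2.26 ± 0.69), and 2 were lower, the chemokines Cxcl15 (-3.06 ± 0.89) and Cxcl17 (-1.54 ± 0.44). Among all genes 4.47% were called higher and 6.13% lower. All 5 cytokine calls were lost without one or more luminal arrays.

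Genes that tissue digestion can induce were higher in 4 of 14 cases and lower in 0. Nr4a1, an orphan nuclear receptor, was at lowest 9.36, median 9.93 and highest 10.56 in tumours and 7.43 and 7.73 at 8 weeks and 7.75 and 8.46 at 10 months in luminal cells (2.09 ± 0.32, adjusted p = 0.00047), and Egr2, a zinc finger factor, at lowest 7.68, median 8.58 and highest 9.47 in tumours and 6.54 and 6.41 at 8 weeks and 6.54 and 6.69 at 10 months in luminal cells (2.02 ± 0.32, adjusted p = 0.000694). Neither overlapped. The heat shock gene Hspa1b (1.06 ± 0.18) and the phosphatase Dusp1 (0.54 ± 0.14) were the others. The mean of the list was 9.97 to 10.79 in tumours and 9.50 to 9.97 in luminal cells, highest in tumour 5. The part of digestion in these genes was not tested. Of 16 squamous and stress keratin genes 2 were lower and 0 higher, the protease Klk10 at lowest 4.32, median 6.14 and highest 9.22 in tumours and 9.93 and 9.60 at 8 weeks and 10.02 and 9.06 at 10 months in luminal cells, where tumour 1 overlapped (-3.52 ± 0.68, adjusted p = 0.00303), and Sprr2f (-1.43 ± 0.25), which was dim on all 7 tumours. Vwf, a marker of endothelium, was the 1 of 14 endothelial genes called (-1.86 ± 0.43), against 6.13% of all genes called lower. Pecam1 and Cdh5 were not called (adjusted p = 0.558 and 0.785). By limma 0 of 22 oxidative phosphorylation genes were called (3 at an unadjusted p under 0.05), as were 0 of 19 ribosomal protein genes and 0 of 14 genes of the unfolded protein response (0 at an unadjusted p under 0.05 in both).

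Oncogene-carrying luminal cells of the same genotype, sorted as YFP+ luminal cells 8 weeks after tamoxifen (2 arrays), were used to see which differences were also tumour differences from pre-tumour mutant cells. In that comparison 341 genes were called (2.5%). Of the 303 rises 50 were also above the mutant luminal cells, where 0.834% of all genes were higher, and of the 219 falls 32 were below them, where 1.66% of all genes were lower, with 0 called in the opposite direction. Car12 (1.83 ± 0.36, adjusted p = 0.0158), Sema5a (3.36 ± 0.53, adjusted p = 0.00861), Tgfb3 (2.16 ± 0.40, adjusted p = 0.0126) and Chac1 (-3.13 ± 0.74, adjusted p = 0.0321) were among these. Krt5 (-0.63 ± 0.81, adjusted p = 0.717), Krt14 (-1.07 ± 0.61, adjusted p = 0.356), Pira1 (-0.06 ± 0.27, adjusted p = 0.931) and Plac8 (-0.24 ± 0.56, adjusted p = 0.853) were not called there. Acta2 was not called either, but unlike the 2 keratins its mean was higher in tumours (2.20 ± 0.71, adjusted p = 0.0991). Both comparisons use the same tumour arrays. Against tumours of K5CREERT2/PIK3CA-H1047R/RosaYFP mice (3 arrays), in which Cre is driven from the basal keratin 5 promoter, limma called 0 genes (1986 at an unadjusted p under 0.05), so no gene described here was shown to be particular to the K8-driven tumours.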

How the data were processed

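The authors deposited 1 log2 value per probe set for 28 Affymetrix arrays (45141 probe sets); per the submitters' processing notes R 2.14.0 was used, and background correction and normalization are not given in the sources used here, nor is the log base stated beyond what the values show. All deposited columns matched a labelled sample (0 unmapped). No depth applies to arrays, so their number limits the precision. Of 29449 annotated probe sets, 28898 had 1 gene symbol, and 551 with several were not named, while 15692 without an entry were left out. Each gene took its probe set with the highest mean, and genes above the 40th percentile of an array (3.89 to 3.99) on at least 2 arrays were tested. limma 3.58.1 in R 4.3.3 fitted 1 mean per group over all 28 arrays, with the difference of tumours from the mean of both luminal groups on the log2 scale, ± its standard error, and Benjamini-Hochberg adjustment over all genes tested. Every adjusted p in the text is limma's unless another method is named. In simulated data all arrays of a gene shared 1 mean and 1 normal spread, apart from the genes changed in tumours. There limma recovered 79% of genes changed 2-fold and 97% of those changed 4-fold, and 5.38% of calls were false. Real tumour arrays varied more than luminal ones and many genes differed between groups, so these rates do not carry over to the real comparison.

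Named genes were, by rule, the 12 largest rises and 12 largest falls among called genes whose arrays did not overlap, the 5 with the largest moderated t in each direction, up to 4 called genes of each list, the 6 with the largest SD over tumours, and a fixed set of lineage genes. Predicted genes were passed over. Other list genes are named where a list's calls are given in full. The members and the 39 gene lists were chosen with earlier results of these data known. The numbers of the arrays were checked as pairs, but the check could not decide whether they pair arrays, and the main fit did not use them. Alternatives covered probe set choice, filter, scaling, prior, weights, samples fitted, covariates and each array left out.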

Additional observations from a re-analysis of the deposited data

Results flagged for a closer look

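Of 132 named genes, 8 (6.06%) had 1 tumour whose gap to the nearest other tumour, divided by the range of the 7, exceeded Dixon's 95% critical value, and chance gives about 1 in 20. Tumour 3 was low in 4 of them: Epcam was at 8.08 against 10.52 to 11.31 in the other tumours, Krt8 at 10.46 against 11.56 to 11.87, Krt18 at 9.83 against 11.12 to 11.53, and Elf5 at 3.76 against 6.79 to 8.26. Tumour 1 was high in Fasn, at 8.51 against 7.90 to 8.16, and low in Ptx3, at 5.92 against 7.97 to 8.80. Tumour 7 was high in Rspo1, at 4.23 against 3.09 to 3.52. Tumour 4 was high in Tph1, at 6.70 against 4.11 to 5.03.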

How the results depend on the processing

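The count of 1448 genes (611 higher, 837 lower; at 2-fold 303 and 219) was 547 (208 and 339; 120 and 118) when only the 11 arrays were fitted, 471 (232 and 239; 154 and 124) with the immune and fibroblast covariates, and 55 (34 and 21 in both forms) when limma's treat asked for more than a 1.5-fold change. The last of these asks a stricter question by construction. The first used fewer samples and also left the other groups out of the estimate of the spread. Why the counts fell in the first fit and with the covariates was not tested. With the array number as a replicate block it was 2513, with 1269 higher, and 743 and 508 at 2-fold, and the block also called 17 of 23 proliferation genes. Arrays of the same number were compared by their deviations from the mean of their own group. Those deviations correlated at -0.141 to 0.089 between tumours and luminal cells. For number 1 of the 2 luminal times the correlation was 0.154. With 2 arrays per luminal time, and the other groups not checked, this cannot exclude that the numbers pair arrays or share a batch. Leaving out 1 array gave totals of 457 to 1786, 215 to 779 higher and 238 to 1007 lower, and at 2-fold 147 to 392 and 119 to 272, with all the lowest counts from a luminal array left out. Without tumours 2 and 3, chosen after seeing the data, 1204 genes were called, 588 higher and 616 lower. Other filters, scalings, priors, array weights and probe set rules kept the total between 1328 and 1953. Of 119 called named genes 27 kept their call in every one of 25 alternatives. One gene reversed: H2-D1 was 0.71 higher by its brightest probe set, -1.46 by the mean of its probe sets and -4.36 by the most variable one.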

Other observations

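The probe sets of H2-D1, a classical MHC class I gene, disagreed. One was at 11.19 to 11.95 in luminal cells and at 11.49 in tumour 7, but at 4.73 to 8.22 in the other 6 tumours. A second gave 10.57 to 11.40 in luminal cells, 11.06 in tumour 7 and 5.08 to 8.12 in the other tumours. The brightest was at 11.41 to 11.96 in tumours and 9.97 to 11.36 in luminal cells. MHC genes are near-identical and differ between mouse strains, and the strain of each array is not given in the sources used here.

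The 3 erythroid genes tested had a mean level of 8.87 in tumour 1, 5.63 to 7.54 in the other tumours and 6.44 to 7.77 in luminal cells, and 0 were called by limma.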
